A study of Homo sapiens with 12 samples.

Results

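The question addressed here is whether perifosine and sorafenib, given together, changed the transcriptome of Hodgkin lymphoma cells by the sum of what each drug did alone. All 12 arrays of the study entered as a 2 by 2 design with 3 arrays in each group: cells with both drugs (the combination, 10 µM perifosine and 5 µM sorafenib), cells with 10 µM perifosine, cells with 5 µM sorafenib, and untreated control cells. All groups were the established human line L-540, cultured under the same conditions and collected after 24 h with or without drug, so the results describe 1 cell line at 1 dose of each drug and 1 time. The measured quantity was the intensity of biotin-labelled cRNA on Illumina BeadChips, on a log2 scale after normalization. For each gene the interaction was computed as combination minus perifosine minus sorafenib plus control. An interaction of 0 means that the log2 change with both drugs equals the sum of the 2 single-drug changes, a value above 0 means that the combination lay above that sum, and a value below 0 that it lay below. Of the 48803 probes, 11904 had a detection p-value below 0.01 on 3 or more of the 12, 10117 of these have a single annotated gene, and they gave 8092 genes, each represented by its brightest probe.

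Perifosine is an alkylphospholipid that inserts into membranes and interferes with AKT activation and with the movement of cholesterol inside cells. Sorafenib inhibits RAF kinases and several receptor tyrosine kinases. Cells answer a shortage of sterol in the endoplasmic reticulum by releasing SREBP transcription factors, which switch on the enzymes of the mevalonate and sterol pathway, and they answer low oxygen or growth signals through HIF factors, which switch on glycolysis and a set of adaptation genes.

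The arrays detected between 9291 and 11657 probes, and correlations between arrays of a group ran from 0.956 to 0.984. Combination array B stood apart: it detected the fewest probes, had the highest median raw intensity (648.7, with 404.3 as the lowest of the 12) and was weighted lowest by limma, at 0.291, where the weights of the remaining 11 arrays ran from 0.664 to 1.69. The plot of list medians therefore also shows them without it, and the interactions of the genes with values per array are given both ways where they were above background. Of the 7 marker genes of Hodgkin cells that were checked, TNFRSF8 (CD30), TRAF1, GATA3 and FSCN1 were detected on all 12 arrays, IRF4 was detected on 2, and CCL17 and CCL22 were detected on none. The labels do not say that arrays A, B and C of a group come from separate cultures, so any p-value reflects array-to-array spread alone, possibly technical, and 3 arrays per group limit the precision of every value.

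No single gene passed the test for a departure from additivity. With limma and Benjamini-Hochberg adjustment over all genes, the interaction passed an adjusted p of 0.05 for 0 of 8092 genes (0%), and the smallest adjusted p was 1 after rounding. At an unadjusted p under 0.05 there were 163 genes (2.01%), 94 with the combination above the sum (1.16%) and 69 with it below (0.853%), while p-values spread evenly would give 5%. The median interaction of all genes was 0.00057, with 4052 genes above 0 (50.1%) and 4040 below (49.9%). The 5th and 95th percentiles were -0.533 and 0.484. The median standard error was 0.3 log2 units and the median half-width of the 95% interval was 0.655. For 5111 genes (63.2%) the whole 95% interval lay within 1 log2 unit of 0 (within a 2-fold departure in either direction). Estimated interactions beyond 1 log2 unit in size occurred in 73 genes, none of which passed.

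The pairwise comparisons of the same fit give the scale of the single effects. The combination differed from perifosine in 193 genes (2.39%), from sorafenib in 0 genes (0%), and from control in 276 genes (3.41%) at an adjusted p under 0.05. Perifosine differed from control in 0 genes (0%) and sorafenib differed from control in 119 (1.47%), 77 of them higher (0.952%) and 42 lower (0.519%). Each count above 0 depended on single arrays. For the combination against perifosine it was 28 and 29 without perifosine arrays C and B, 54, 76 and 122 without combination arrays C, A and B, 107 and 128 without control arrays B and C, and 118 and 123 without sorafenib arrays B and C. For the combination against control it was 40, 76 and 154 without control arrays C, B and A, 103 and 173 without combination arrays C and B, and 181 without perifosine array B. For sorafenib against control it was 260 without combination array B, 19, 39 and 41 without sorafenib arrays C, B and A, 29, 31 and 72 without control arrays C, B and A, and 68 without perifosine array B. These comparisons share arrays with each other and with the interaction, in which the 3 control arrays enter both single-drug changes.

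Gene lists were described by how many members lay on each side of 0 and by their median, beside the same over all genes. Of the lists with at least 5 measured members, that of sterol and mevalonate synthesis had the median farthest below 0, at -0.64, and that of hypoxia-inducible genes outside glycolysis the median farthest above 0, at 0.35. The respiratory chain list had a median of -0.31, the T and NK marker list one of -0.20 and the cytosolic ribosomal protein list one of -0.16, and all 3 were near 0 without combination array B.

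**Figure D1:**
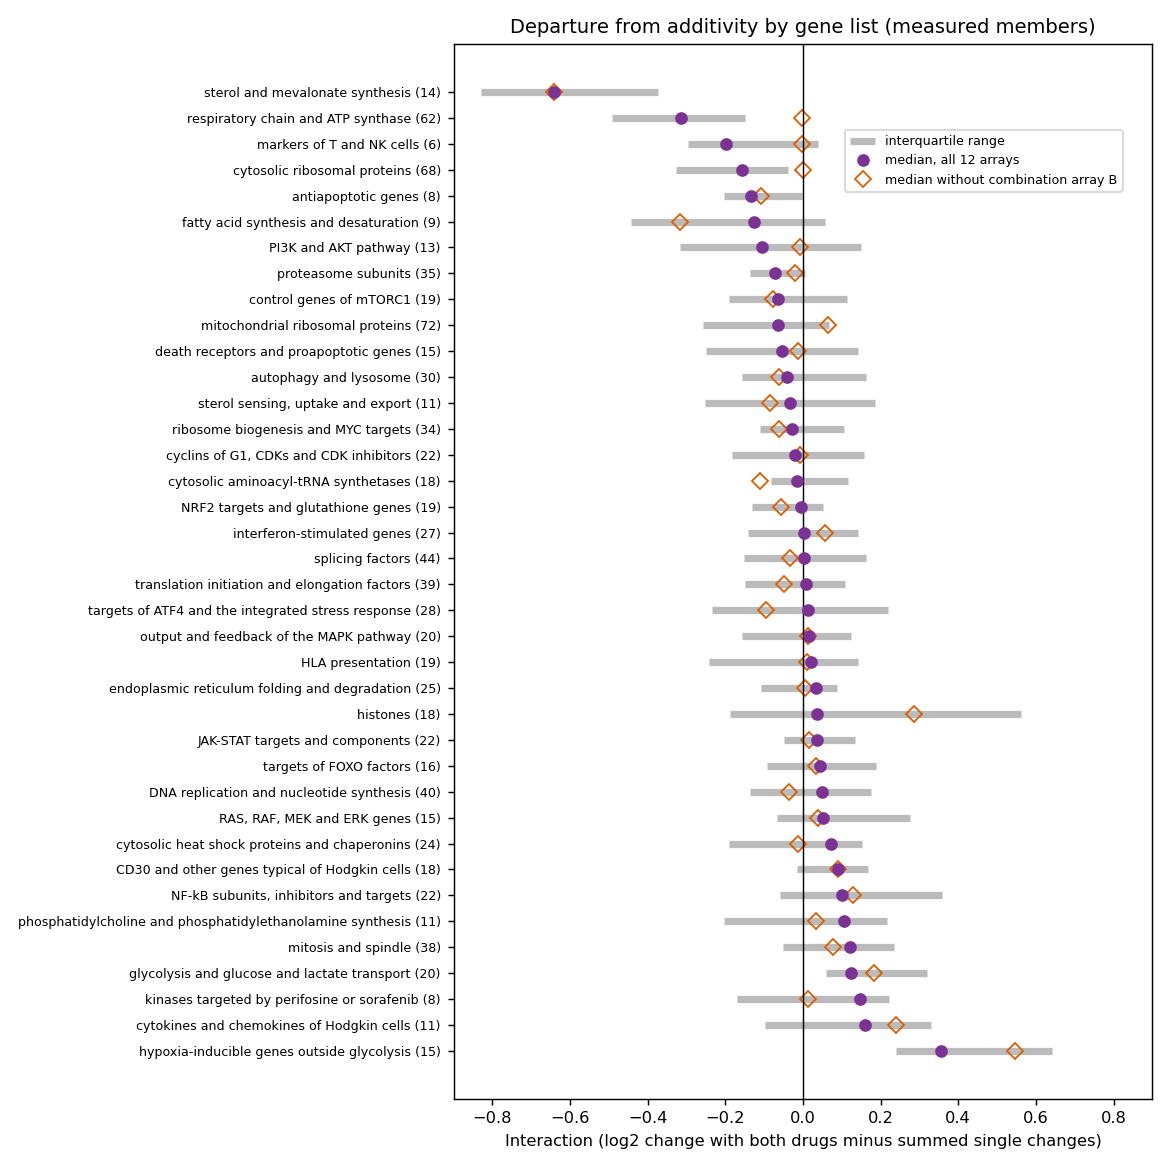
Median interaction (horizontal axis, log2 units) of each gene list with at least 5 measured members, whose number is in brackets; circles use all 12 arrays, diamonds leave out combination array B, and grey bars span the interquartile range of the members. The sterol list (-0.64 both ways) and the hypoxia list (0.35 with all arrays, 0.55 without array B) keep their side of 0, while the respiratory chain and ribosomal protein lists move to near 0 without array B.

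Sterol synthesis was the group in which the combination lay farthest below the sum. The list holds 20 enzymes, of which 17 have a named probe on the array, 14 passed the filter on low values and 12 were detected on all 12 arrays. The interaction was below 0 for 13 of the 14 measured members (92.9%, against 49.9% of all genes) and above 0 for PMVK alone, at 0.07. At an unadjusted p under 0.05, 4 of the 14 were below 0 (28.6%, against 0.853% of all genes), and none passed the adjusted threshold. In bulk RNA such as this, fewer cells of a kind and less RNA per cell cannot be told apart.

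Averaged over the 14 genes and set against the control mean, the list lay at -0.29, -0.45 and -0.54 log2 units on combination arrays A, B and C, at 0.61, 0.73 and 0.72 on the perifosine arrays, at -0.35, -0.57 and -0.55 on the sorafenib arrays, and at 0.09, -0.07 and -0.02 on the control arrays. The perifosine arrays thus lay above all others, the combination arrays covered nearly the same range as the sorafenib arrays, and both of these lay below the control arrays. The median change of the 14 members was -0.47 with the combination, 0.64 with perifosine and -0.59 with sorafenib, and the median of the summed single changes was -0.01. All 14 members had higher means with perifosine than in control cells (50.9% of all genes did), all 14 had lower means with sorafenib than in control cells (49.7%), and 13 had lower means with the combination than in control cells (48.8%). No member passed the adjusted threshold with perifosine, and DHCR7, which encodes the last reductase of cholesterol synthesis, passed it with sorafenib (log2 change -0.87, limma adjusted p = 0.0479).

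Set against perifosine alone, the combination had lower means for all 14 members (49.8% of all genes), with a median of -1.25. For 9 of the 14 (64.3%, against 0.803% of all genes) the combination was lower at an adjusted p under 0.05, namely ACAT2, DHCR7, EBP, FDPS, HMGCS1, LSS, MVD, MVK and NSDHL. The count was 7 without combination array B (0.568% of all genes) and 6 without combination array C (0.26%). It was 4 without perifosine array B and likewise without perifosine array C (0.111% of all genes each time). The share over all genes thus fell as well. Set against sorafenib alone, 11 of the 14 members had higher means with the combination (53% of all genes), with a median difference of 0.05, and none passed. Beside these values, the mean interaction of the list was -0.62, close to its median.

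**Figure D2:**
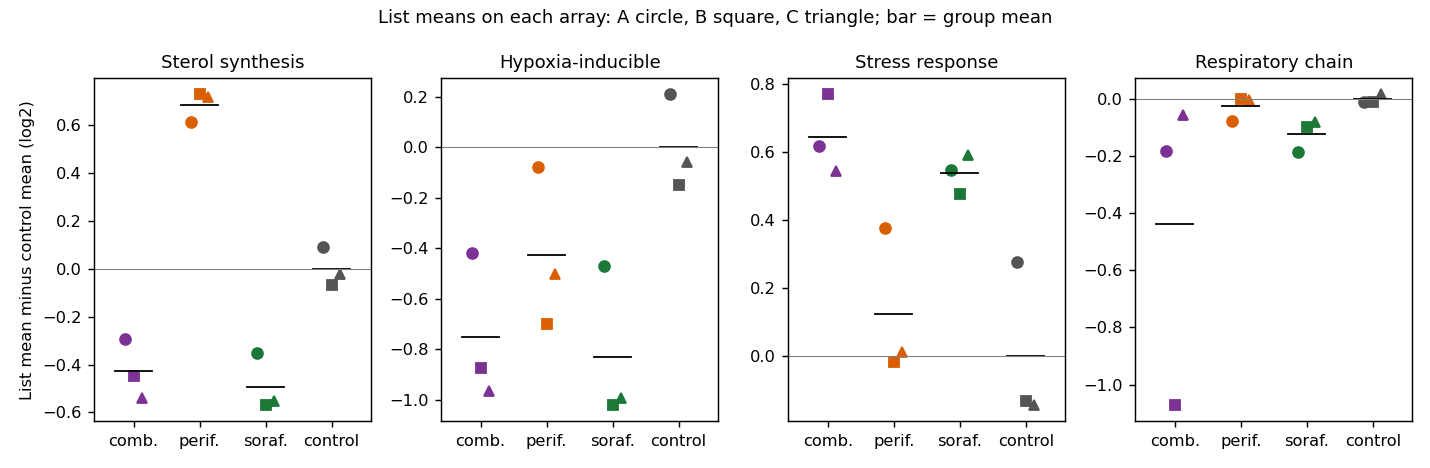
Mean log2 intensity of 4 gene lists on each array, minus the control mean (vertical axis, log2 units), for the combination, perifosine, sorafenib and control arrays; the symbol gives the letter A, B or C and the bar the group mean. In the sterol panel the perifosine arrays lie alone at 0.61 to 0.73, and in the respiratory chain panel combination array B lies alone at -1.07.

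The enzymes up to farnesyl diphosphate are given first, not in pathway order, and the member farthest from the sum was an early one. HMGCS1 encodes the synthase that makes HMG-CoA. It had log2 intensities of 10.05, 9.56 and 8.98 in combination cells, 11.55, 11.59 and 11.19 in perifosine cells, 10.03, 9.38 and 9.10 in sorafenib cells, and 10.48, 9.96 and 9.88 in control cells. The perifosine arrays lay above all others, and the combination arrays overlapped with those of sorafenib and control. Its log2 change against control was -0.58 with the combination and 1.33 and -0.61 with perifosine and sorafenib alone, a sum of 0.73, so the interaction was -1.31 ± 0.421 (SE), with a 95% interval from -2.23 to -0.39 and an unadjusted p = 0.00944 that did not pass adjustment. Without combination array B it was -1.32. The combination minus perifosine was -1.91 (limma adjusted p = 0.011).

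FDPS encodes farnesyl diphosphate synthase, which makes the isoprenoid from which sterols branch off. Its log2 intensities were 8.14, 8.33 and 8.49 with the combination, 9.79, 9.82 and 9.83 with perifosine, 9.01, 8.44 and 8.27 with sorafenib, and 9.13, 9.13 and 9.36 in control cells. Here the combination arrays lay below every control array. The summed single changes came to -0.02 and the observed change with the combination to -0.88 (limma adjusted p = 0.0293), an interaction of -0.86 ± 0.266 (SE; unadjusted p = 0.00727), or -0.87 without combination array B. ACAT2, the cytosolic thiolase that starts the pathway, had 11.59, 11.39 and 11.10 with the combination, 12.58, 12.63 and 12.93 with perifosine, 11.42, 10.89 and 11.23 with sorafenib, and 11.88, 11.69 and 11.82 in control cells. Its interaction was -0.73 ± 0.256 (SE; unadjusted p = 0.0148), or -0.75 without combination array B. The mevalonate kinase gene MVK had an interaction of -0.72 and the decarboxylase gene MVD one of -0.64, while the phosphomevalonate kinase gene PMVK, which acts between them, had 0.07.

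Past farnesyl diphosphate, LSS encodes lanosterol synthase, which closes the sterol ring. Its log2 intensities were 9.46, 9.35 and 9.76 with the combination, 10.31, 10.93 and 10.79 with perifosine, 9.42, 9.34 and 9.39 with sorafenib, and 9.70, 9.62 and 9.56 in control cells. The combination arrays spread around the control arrays, and the perifosine arrays stood above both. The interaction was -0.90 ± 0.247 (SE), with a 95% interval from -1.44 to -0.36 (unadjusted p = 0.0034), it was -0.82 without combination array B, and the combination minus perifosine was -1.15 (limma adjusted p = 0.0108). MSMO1, a sterol demethylase, had an interaction of -1.03 with a wide interval from -2.32 to 0.26, and its second probe gave -1.52. The squalene epoxidase gene SQLE had -0.65 and its second probe -0.86. The later enzymes of the list had DHCR7 at -0.54, EBP at -0.45, TM7SF2 at -0.35, NSDHL at -0.34 and HSD17B7 at -0.24.

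**Figure D3:**
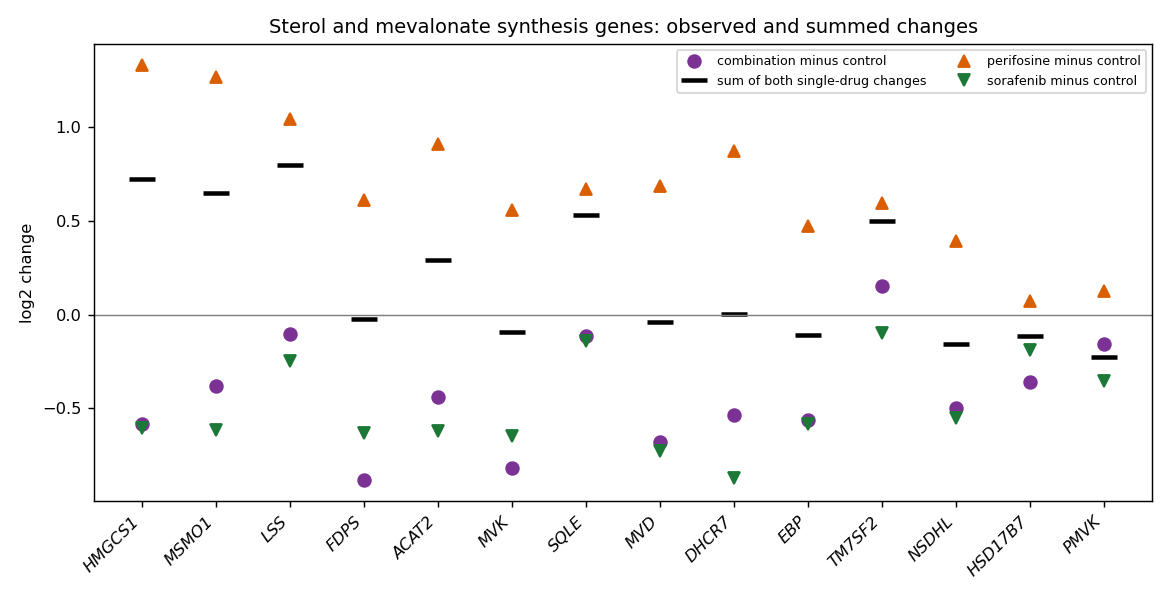
Log2 changes (vertical axis) of the 14 measured sterol synthesis genes, ordered by interaction; circles give the combination minus control, bars the sum of both single changes, and triangles perifosine minus control (up) and sorafenib minus control (down). For every gene but PMVK the circle lies below the bar, and the perifosine triangle lies above 0 for all 14.

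Genes that sense, import or export sterol were not shifted in the same way as a group. The list of sterol sensing, uptake and export had 11 measured members, a median interaction of -0.03 and 4 members above 0 (36.4%). INSIG1, an SREBP target whose protein holds SREBP in the endoplasmic reticulum when sterol is plentiful, had log2 intensities of 12.09, 11.81 and 11.59 with the combination, 13.14, 13.07 and 13.64 with perifosine, 11.83, 11.56 and 11.33 with sorafenib, and 12.86, 12.51 and 13.02 in control cells. Its change with the combination, -0.97 (limma adjusted p = 0.0331), lay below the sum of -0.74, an interaction of -0.23 with a 95% interval from -0.89 to 0.43, and -0.22 without combination array B. MYLIP, a ubiquitin ligase induced by the sterol-sensing LXR receptors, had an interaction above 0. It had 10.91, 10.67 and 10.56 with the combination, 9.56, 9.52 and 9.47 with perifosine, 11.18, 11.05 and 11.22 with sorafenib, and 10.42, 10.74 and 10.33 in control cells. The perifosine arrays lay below all others, the combination and control arrays overlapped, and the interaction was 0.54 ± 0.214 (SE; unadjusted p = 0.0267), or 0.56 without combination array B. The combination minus perifosine was 1.19 (limma adjusted p = 0.00613).

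Fatty acid synthesis and desaturation had 9 measured members with a median interaction of -0.13 and 3 members above 0, and medians of -0.32 without combination array B and 0.06 without combination array A. ACSL4, which loads long polyunsaturated fatty acids onto coenzyme A, had 8.98, 9.43 and 9.42 with the combination, 10.25, 10.27 and 10.42 with perifosine, 9.40, 10.07 and 9.54 with sorafenib, and 9.73, 10.04 and 8.90 in control cells, an interaction of -1.15 ± 0.388 (SE; unadjusted p = 0.0124), or -1.22 without combination array B. Its other probes lay on opposite sides of 0, at 0.37 and -0.60. The desaturase gene SCD had -0.46 and the synthase gene FASN -0.10.

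The hypoxia-inducible list lay on the other side of the sum. It holds 25 genes, of which 24 have a named probe, 15 passed the filter and 11 were detected on all 12 arrays. The interaction was above 0 for 15 of the 15 measured members (against 50.1% of all genes), and at an unadjusted p under 0.05 for 3 of them, EGLN1, JMJD6 and ZNF395 (20%, against 1.16% of all genes). Of the 15, HILPDA and MXI1 were detected on fewer than 2 arrays of at least 1 group, where a value at background can fall no further. All 11 members detected on all 12 arrays were above 0, also with a median of 0.35. The median change was -0.80 with the combination, -0.38 with perifosine and -0.70 with sorafenib, and the summed single changes had a median of -1.26. Against control, 12 of the 15 had lower means with the combination (3 higher, against 51.2% of all genes), 13 had lower means with perifosine (49.1%) and 14 with sorafenib (1 higher, against 50.3%). At an adjusted p under 0.05 the combination was lower than control for 2 of the 15 (13.3%, against 1.1% of all genes), ZNF395 and ANKRD37. This count was 0 without control array C (0.0989% of all genes) or combination array C (0.47%). It was 1 without combination array B (0.816%) and 4 without combination array A (0.914%). The combination was higher than perifosine for 5 of the 15 (50.2%) and higher than sorafenib for 10 (the rest lower, against 47% of all genes), with a median difference of 0.09 from sorafenib. Without combination array B, 13 of the 15 were above 0 and the median was 0.55.

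Letter A ran high in every group of this list. Against the control mean, the list mean was -0.42, -0.87 and -0.96 on combination arrays A, B and C, -0.08, -0.70 and -0.50 on the perifosine arrays, -0.47, -1.02 and -0.99 on the sorafenib arrays, and 0.21, -0.15 and -0.06 on the control arrays. The combination arrays overlapped with those of perifosine and sorafenib, and lay below the control arrays. The SD of the list mean was 0.29 with the combination, 0.32 with perifosine, 0.31 with sorafenib and 0.19 in control cells. The mean interaction of the list was 0.50. Leaving out 1 array at a time moved the list median between 0.19 and 0.58; the lowest came without combination array A and the highest without sorafenib array A.

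EGLN1 encodes the prolyl hydroxylase that marks HIF for destruction. It had log2 intensities of 7.32, 8.45 and 7.65 with the combination, 8.14, 7.62 and 7.50 with perifosine, 6.92, 7.27 and 7.67 with sorafenib, where 2 of 3 arrays detected it, and 8.72, 8.12 and 8.35 in control cells. The combination arrays overlapped with those of all 3 other groups. The interaction was 1.16 ± 0.428 (SE; 95% interval 0.23 to 2.10), or 0.84 without combination array B. ZNF395, a zinc finger gene, had 9.53, 9.02 and 8.85 with the combination, 10.07, 9.58 and 9.48 with perifosine, 9.38, 8.71 and 9.05 with sorafenib, and 10.52, 10.34 and 10.43 in control cells. It fell by 1.30 with the combination (limma adjusted p = 0.0155), while the summed single changes came to -2.11, and the interaction was 0.81 ± 0.322 (SE), or 0.87 without combination array B. The hydroxylase gene JMJD6 had an interaction of 0.91 ± 0.37 (SE), or 0.78 without combination array B, with no change past the threshold in any pairwise comparison.

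Other members had wide intervals. ANKRD37, which fell by 1.60 with the combination (limma adjusted p = 0.0428) against a sum of -1.97, had an interaction of 0.37 with a 95% interval from -0.80 to 1.54, and leaving out 1 array gave -0.07 (without combination array A) to 0.77 (without combination array B). DDIT4, an inhibitor of mTORC1, had 0.41, with an interval from -1.13 to 1.96, and leaving out 1 array gave -0.02 (without combination array A) to 0.89 (without perifosine array A), with 0.67 without combination array B. The endoplasmic reticulum oxidase gene ERO1A had 0.35 and INSIG2 had 0.48. HILPDA, a lipid droplet gene, was detected on 1 combination array, 1 perifosine array, 0 sorafenib arrays and 3 control arrays, so its fitted interaction of 1.61 is not a measured size. MXI1, a MYC antagonist, was detected on 0 combination arrays, 1 perifosine array, 1 sorafenib array and 2 control arrays.

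HIF factors bind the core letters ACGTG. The RefSeq promoters of GRCh38.p14 (250 bases before to 50 after the start of a transcript) held ACGTG on either strand for 8 of the 9 members of the hypoxia list that have an entry (88.9%), against 24.9% of 27305 genes, and the exception was P4HA2. A gene was counted if any of its promoters held a match. A match is a description of letters and not a site. The members were listed because they are hypoxia-inducible, so this share follows from the choice of list and says nothing about the interaction. The promoters of HK2, a glycolysis gene described next, of EGLN1, and of 2 further members are shown as the sequences of the genes above the sum, 5′ to 3′ on the strand of the gene, with ACGTG or its reverse complement in capitals. They lie at chr2:74833877-74834176 (plus strand) for HK2, chr1:231422238-231422537 (minus strand) for EGLN1, chr4:185396591-185396890 (plus strand) for ANKRD37 and chr14:52695509-52695808 (minus strand) for ERO1A.
HK2: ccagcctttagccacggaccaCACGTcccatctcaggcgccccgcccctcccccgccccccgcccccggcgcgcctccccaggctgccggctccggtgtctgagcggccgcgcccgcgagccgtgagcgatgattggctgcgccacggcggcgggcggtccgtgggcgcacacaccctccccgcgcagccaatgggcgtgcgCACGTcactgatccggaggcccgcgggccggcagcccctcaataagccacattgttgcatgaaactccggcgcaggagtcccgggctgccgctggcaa
EGLN1: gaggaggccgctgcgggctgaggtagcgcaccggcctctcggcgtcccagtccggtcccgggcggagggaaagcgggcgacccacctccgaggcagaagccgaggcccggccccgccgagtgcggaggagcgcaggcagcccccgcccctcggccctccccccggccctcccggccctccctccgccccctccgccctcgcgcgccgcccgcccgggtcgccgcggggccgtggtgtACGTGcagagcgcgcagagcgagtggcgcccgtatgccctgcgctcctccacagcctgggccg
ANKRD37: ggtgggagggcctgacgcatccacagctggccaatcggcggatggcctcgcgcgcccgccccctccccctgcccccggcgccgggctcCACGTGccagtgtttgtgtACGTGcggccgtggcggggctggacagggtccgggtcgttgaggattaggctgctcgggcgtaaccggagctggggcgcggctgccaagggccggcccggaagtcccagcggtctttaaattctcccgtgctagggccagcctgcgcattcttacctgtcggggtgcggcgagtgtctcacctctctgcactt
ERO1A: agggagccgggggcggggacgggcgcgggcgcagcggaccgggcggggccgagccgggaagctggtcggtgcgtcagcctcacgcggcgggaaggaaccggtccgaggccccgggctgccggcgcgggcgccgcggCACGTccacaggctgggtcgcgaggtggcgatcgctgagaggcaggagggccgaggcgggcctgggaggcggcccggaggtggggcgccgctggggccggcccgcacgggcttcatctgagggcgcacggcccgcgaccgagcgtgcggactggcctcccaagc
HK2 had 2 matches, EGLN1 1, ANKRD37 3, of which the first pair overlap because the 6 letters read the same on both strands, and ERO1A 1. The same search for TCACNCCAC, letters of the sterol regulatory element, found none in the promoters of the 12 sterol genes with an entry, against 1.39% of all genes. This says only that these letters are not in the windows searched.

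Glycolysis and sugar transport had 20 measured members of 24 listed, all detected on 12 arrays, and lay slightly above the sum. The interaction was above 0 for 17 of the 20 (85%, against 50.1% of all genes), with a median of 0.12, and at an unadjusted p under 0.05 for HK2 and PGAM1 (10%, against 1.16%). Without combination array B the median was 0.18, again with 17 above 0. The median change was -0.61 with the combination, -0.15 with perifosine and -0.65 with sorafenib. At an adjusted p under 0.05 the combination was lower than control for 9 of the 20 (45%, against 1.1% of all genes). This count was 7 without combination array B (0.816% of all genes) and 3 without combination array C (0.47%). It was 2 without control array B (0.198%) or control array C (0.0989%). It was 6 without combination array A (0.914%), control array A (0.544%), perifosine array B (0.741%), sorafenib array B (0.803%) or sorafenib array C (0.816%).

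HK2, the hexokinase that traps glucose in many tumour cells, had the smallest unadjusted interaction p of all 8092 genes, 0.00178. Its log2 intensities were 7.93, 8.20 and 8.01 with the combination, 8.66, 8.75 and 9.04 with perifosine, 7.44, 7.74 and 7.68 with sorafenib, and 9.27, 9.47 and 9.14 in control cells. No 2 groups overlapped: control was highest, then perifosine, then the combination, and sorafenib was lowest. HK2 fell with the combination and with sorafenib (log2 changes -1.24 and -1.67, limma adjusted p = 0.00417 and 0.00217), and perifosine gave -0.47. The single changes sum to -2.14, so the interaction was 0.90 ± 0.224 (SE; 95% interval 0.41 to 1.39), or 0.83 without combination array B. Its second probe gave an interaction of 0.80 (unadjusted p = 0.0224). PGK1, an enzyme of the lower pathway, fell by 1.23 with the combination (limma adjusted p = 0.00389) against a sum of -1.44. Its interaction of 0.21 had a 95% interval from -0.27 to 0.68, and a second probe gave 0.45 ± 0.326 (SE).

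**Figure D4:**
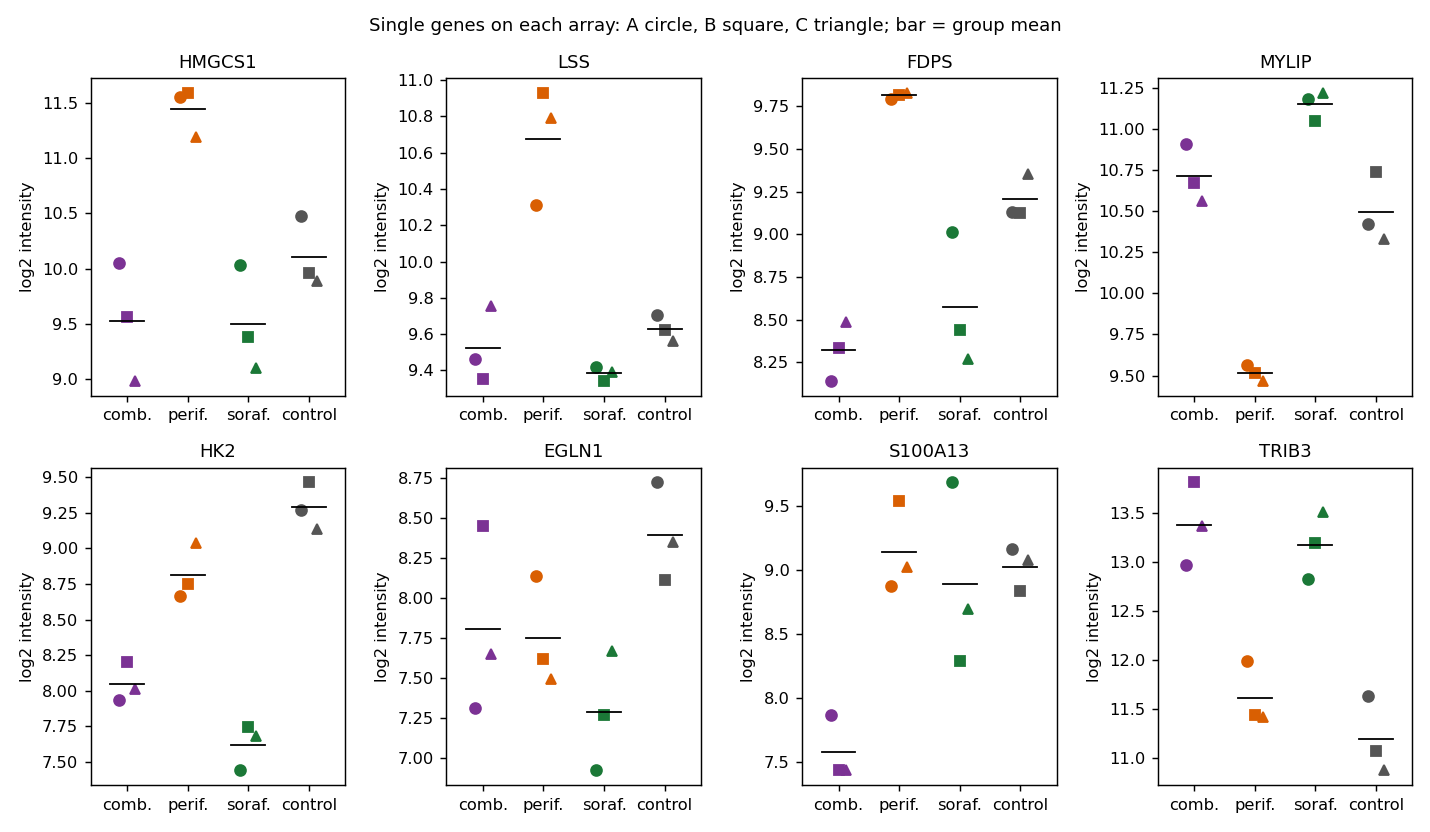
Log2 intensity (vertical axis, a separate scale per gene) of 8 genes on each of the 12 arrays, for the combination, perifosine, sorafenib and control; the symbol gives the letter and the bar the group mean. HMGCS1, LSS and FDPS are highest on the perifosine arrays, MYLIP is lowest on them, S100A13 is lowest on the combination arrays, and TRIB3 is high on the combination and sorafenib arrays alike.

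Several genes with large changes had interaction intervals that include 0. TRIB3, a pseudokinase induced by ATF4 and a feedback inhibitor of AKT in some settings, had 12.97, 13.82 and 13.37 with the combination, 11.99, 11.44 and 11.42 with perifosine, 12.83, 13.20 and 13.51 with sorafenib, and 11.63, 11.07 and 10.87 in control cells. The combination and sorafenib arrays overlapped and lay above all perifosine and control arrays. TRIB3 rose by 2.20 with the combination (limma adjusted p = 0.00389), the summed single changes were 2.42, and the interaction was -0.22 (95% interval -1.07 to 0.63), or -0.44 without combination array B. CCPG1, an autophagy receptor of the endoplasmic reticulum, rose by 2.05 against a sum of 2.15 (interaction -0.10, interval -0.77 to 0.57, or -0.22 without combination array B). DDIT3, the stress transcription factor CHOP, rose by 1.39 against a sum of 1.17 (interaction 0.22, interval -0.67 to 1.12, or 0.39 without combination array B).

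Over the 28 measured ATF4 and integrated stress response targets, the median interaction was 0.01, with 15 members above 0 (53.6%). Without combination array B the median interaction was -0.09, with 7 members above 0. Computed on the linear scale, as a share of the control level, the median departure was 0.12, with 19 members above 0. The side of 0 on which this list lay thus depended on the arrays used. With all arrays, both scales gave a median above 0. The median change was 0.74 with the combination, 0.12 with perifosine and 0.55 with sorafenib, and the summed single changes had a median of 0.71. At an adjusted p under 0.05 the combination was higher than control for 8 of the 28 (28.6%, against 2.31% of all genes) and higher than perifosine for 6 (21.4%, against 1.58%). The first of these counts was 5 without combination array B (1.32% of all genes) and 4 without combination array C (0.803%). It was 3 without control array B (0.741%) and 2 without control array C (0.395%). The second count was 5 without combination array B (0.939% of all genes) and 3 without combination array A (0.643%) or C (0.408%). It was 1 without perifosine array B (0.247%) or C (0.235%). The list mean, again against the control mean, was 0.62, 0.77 and 0.54 on the combination arrays, 0.38, -0.02 and 0.01 on the perifosine arrays, 0.55, 0.48 and 0.59 on the sorafenib arrays, and 0.28, -0.13 and -0.14 on the control arrays. Perifosine array A and control array A were the high ones of their groups. Among single members, SLC7A11, the cystine transporter, had an interaction of -0.66 (unadjusted p = 0.039), with changes of 0.79 with the combination and 0.81 and 0.65 with perifosine and sorafenib alone. The glucocorticoid-induced gene TSC22D3 had an interaction of 0.92, with an interval from -0.88 to 2.72.

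Further genes that changed with both drugs together also had intervals that include 0. CSNK1G1, a casein kinase gene, rose by 2.28 with the combination against a sum of 2.86. Its interaction was -0.58 (interval -1.42 to 0.26), or -0.74 without combination array B, and a second probe gave -0.06. CDC14B, a cell cycle phosphatase gene, rose by 1.98 against 1.86. Its interaction was 0.12 (interval -0.60 to 0.85), or 0.06 without combination array B, and a second probe gave 0.64. ALOX5AP, which presents arachidonic acid for leukotriene synthesis, rose by 1.65 against 2.12 (interval -1.17 to 0.24), an interaction of -0.47, or -0.25 without combination array B. The linker histone gene H1-2 fell by 2.27 against a sum of -2.22, an interaction of -0.05 that was 0.39 without combination array B and -0.41 without combination array A. The targets of JAK-STAT signalling CISH, PIM1 and PIM2 had interactions of -0.28, 0.14 and 0.12 (-0.18, 0.08 and 0.06 without combination array B), and their list of 22 members a median of 0.04. CISH fell by 1.18 with the combination (limma adjusted p = 0.0132) against a sum of -0.90.

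Cytokines and chemokines of Hodgkin cells had 11 measured members and a median interaction of 0.16, with 8 above 0, and 7 without combination array B. That median was 0.04 without control array A and 0.41 without sorafenib array A. IL22 had 9.54, 8.78 and 9.29 with the combination, 11.23, 10.47 and 10.58 with perifosine, 9.20, 8.70 and 8.88 with sorafenib, and 11.57, 10.81 and 10.69 in control cells. The combination and sorafenib arrays lay below all others. IL22 fell by 1.82 with the combination (limma adjusted p = 0.00992) against a sum of -2.36, and the interaction of 0.54 had an interval from -0.35 to 1.42 and was 0.75 without combination array B, while a second probe gave -0.45. CCL5 had -0.28, CXCR4 0.31, IL10 0.35, LTA 0.36, CXCL16 0.27, IL26 0.16, IL15 0.13 and CCR7 0.09, none with an unadjusted p under 0.05. Without combination array B, CCL5 had -0.05, CXCR4 0.12, IL26 0.36, IL15 0.24 and CCR7 -0.02. TNF was detected on 1 combination array, 3 perifosine arrays, 2 sorafenib arrays and 3 control arrays, so its size is not measured. CCL3, a chemokine gene, was detected on 1 combination array and 3 perifosine arrays and on no sorafenib or control array. Its log2 values were 6.45, 6.19 and 7.07 with the combination, 8.49, 8.23 and 7.95 with perifosine, 6.02, 6.50 and 6.92 with sorafenib, and 6.85, 6.55 and 6.88 in control cells, so the fitted interaction of -1.38 (unadjusted p = 0.00354) rests on 2 groups at background. Each perifosine array lay above every other array.

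Several list values rested on combination array B. The respiratory chain and ATP synthase list had 62 measured members, a median interaction of -0.31 and 13 members above 0 (21%). Its list mean was -0.18, -1.07 and -0.05 on the combination arrays, -0.08, 0.00 and 0.00 on the perifosine arrays, -0.19, -0.10 and -0.08 on the sorafenib arrays, and -0.01, -0.01 and 0.02 on the control arrays. Array B of the combination was thus the low one, and without it the median was -0.0013 with 30 of 62 members above 0. The complex I subunit gene NDUFC1 had 9.45, 6.70 and 9.55 with the combination, 9.76, 9.88 and 9.85 with perifosine, 9.54, 9.77 and 9.67 with sorafenib, and 10.10, 10.08 and 10.27 in control cells. The complex IV subunit gene COX7B had 9.32, 6.56 and 9.76 with the combination, 9.86, 9.98 and 9.94 with perifosine, 9.04, 9.74 and 9.12 with sorafenib, and 10.20, 9.81 and 10.26 in control cells. For both genes combination array B lay below every other array. The interaction without array B was 0.16 for NDUFC1 and 0.40 for COX7B, in place of -0.77 and -0.59. SDHD, a complex II subunit gene, had 7.07, 7.36 and 8.71 on the combination arrays, where only 1 of the 3 detected it, so its interaction is not a measured size.

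The cytosolic ribosomal protein list had 68 measured members, a median of -0.16 and 10 above 0 (14.7%), and a median of -0.00074 with 34 above 0 without array B. These genes have many near-identical pseudogenes, so their probes may share signal. The members farthest below 0 were RPL37A at -0.90, RPL7A at -0.89 and RPLP1 at -0.88, and without array B they had -0.40, -0.58 and -0.44. The 6 measured markers of T and NK cells, which L-540 expresses in part, had a median of -0.20 and 2 above 0, and -0.0034 and 3 above 0 without array B. CD2, CD247, CD4, NKG7 and PRF1 were detected on all 12 arrays and GZMB on 11, while CD3D, CD3E and CD3G were detected on none. Histones had a median of 0.04 with all arrays and of 0.28 without array B. What set array B apart was not tested.

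Apart from the lists, the 12 genes with the smallest unadjusted p on each side, among those detected on at least 2 arrays of every group, are given as a description, since none passed adjustment. Those above the sum were HK2, PISD, C8orf33, DYNC1H1, GCSAM, ATP6V1G1, NKRF, TUBGCP2, FKBPL, MIEF1, EGLN1 and EXOSC9, with interactions from 0.60 to 1.16, or 0.52 to 1.14 without combination array B. PISD makes phosphatidylethanolamine in mitochondria, and it had 8.75, 9.02 and 9.06 with the combination, 8.65, 8.25 and 8.53 with perifosine, 8.43, 8.46 and 8.43 with sorafenib, and 8.64, 8.88 and 8.80 in control cells. The combination and control arrays overlapped and each single drug lay lower on average, so the interaction was 0.80 ± 0.211 (SE; unadjusted p = 0.00269), or 0.76 without combination array B. DYNC1H1, the heavy chain of the dynein motor, and TUBGCP2, of the gamma-tubulin complex that nucleates microtubules, had 0.90 and 0.73, against sums of -1.30 and -1.38. ATP6V1G1, a subunit of the proton pump of lysosomes, had 0.70, and MIEF1, a receptor for the mitochondrial fission protein DRP1, had 0.64.

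Those below the sum were OBI1, LSS, S100A13, FDPS, C8orf82, HABP4, DLD, HMGCS1, ACSL4, ZNF614, MON1B and ACAT2, with interactions from -1.43 to -0.54, or -1.36 to -0.53 without combination array B. Of these 12, 4 belong to the sterol list, which holds 14 of the 8092 genes tested. They are the same 4 counted above at an unadjusted p under 0.05, and not a further observation. S100A13, a calcium-binding protein gene, had 7.87, 7.43 and 7.43 with the combination, where 2 of 3 arrays detected it, 8.88, 9.54 and 9.02 with perifosine, 9.69, 8.29 and 8.70 with sorafenib, and 9.17, 8.84 and 9.08 in control cells. Every combination array lay below every other array. Its change was 0.12 with perifosine and -0.14 with sorafenib, neither past the threshold, and -1.45 with the combination (limma adjusted p = 0.0297), so the interaction was -1.43 ± 0.439 (SE), or -1.36 without combination array B. Its other 2 probes gave -0.54 and -0.19. OBI1, a ubiquitin ligase of replication origins, had 8.24, 7.60 and 7.82 with the combination, 8.54, 8.76 and 8.44 with perifosine, 8.69, 8.50 and 8.33 with sorafenib, and 7.91, 8.36 and 8.13 in control cells. Its single changes of 0.45 and 0.37 sum to 0.82 and the combination gave -0.25, an interaction of -1.07 ± 0.273 (SE; unadjusted p = 0.00217), or -0.93 without combination array B. DLD, a subunit shared by mitochondrial dehydrogenase complexes, had -0.75, and HABP4 had -0.68, where a second probe gave 0.77.

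**Figure D5:**
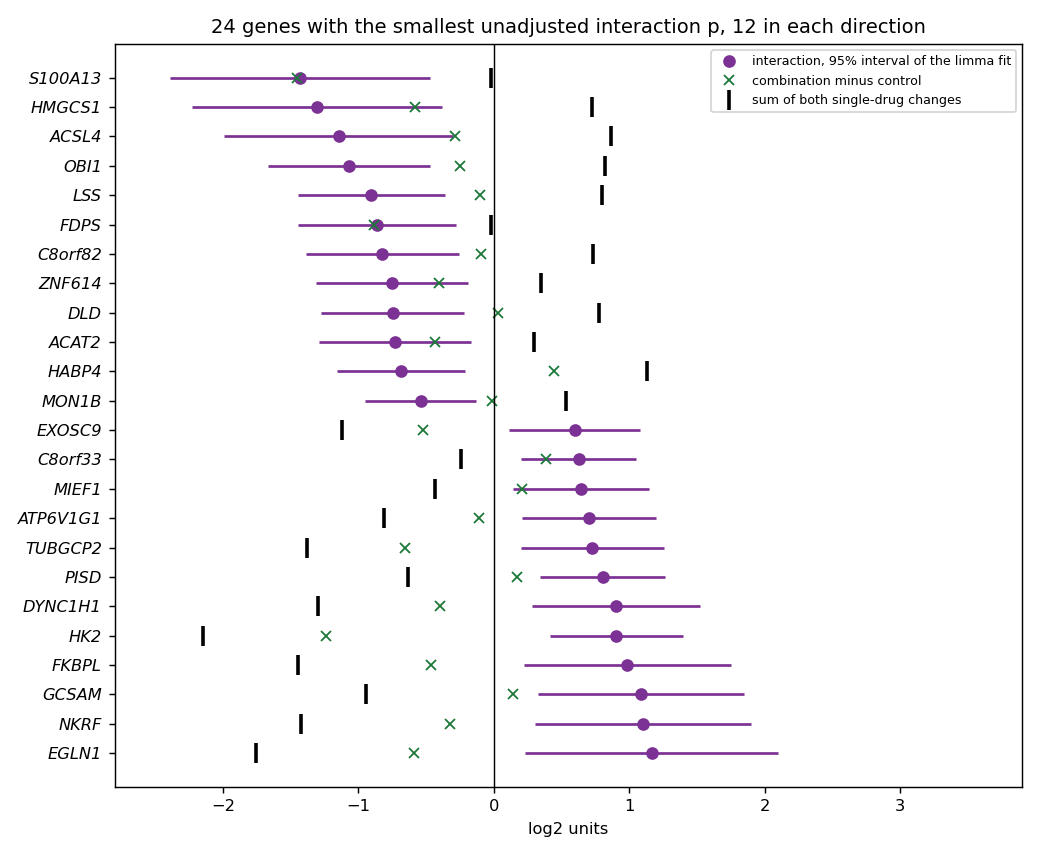
Interaction (circles, log2 units) with its 95% interval for the 12 genes of smallest unadjusted p on each side, with the combination minus control (crosses) and the sum of both single changes (bars). All 24 intervals exclude 0 without adjustment, none of the genes passed adjustment over the 8092 genes, and HMGCS1, LSS, FDPS and ACAT2 are among those below 0.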

How the data were processed

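RNA of the 12 samples was amplified to biotinylated cRNA and hybridised to 1-colour Illumina BeadChips, per the labels' protocols. Per the file headers, each array has 1 column of linear, unnormalized intensity and 1 of detection p-values. The tool BeadStudio comes from the submitters' processing notes. The authors also deposited normalized intensity values, on a linear scale and by a method not given in the sources used. Of the 48803 probes, 28098 have 1 gene symbol, 13 have several and 20692 are unnamed here.

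The neqc function (limma 3.58.1, R 4.3.3) corrected background by normexp with offset 16, applied quantile normalization and took log2. Probes detected at p below 0.01 on 3 or more arrays were kept, and the brightest represented a gene. All arrays entered 1 fit with 4 group means (lmFit, eBayes), which was tested on simulated data, and p-values were adjusted by Benjamini-Hochberg over 8092 genes. The departure was also computed on the linear scale. Of 43 lists, 41 had measured members. The members and lists were chosen with earlier results of these data known. Named genes are the 12 of smallest unadjusted p on each side (detected on at least 2 arrays of every group), the members (all if 12 or fewer, otherwise the 8 farthest from 0) of the 6 lists with medians farthest from 0, 20 further genes, and up to 4 on each side at background in a group. Of the 20, TXNIP did not pass the filter and 1 is not reported here. Members named outside this rule were chosen after their values were seen.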

Additional observations from a re-analysis of the deposited data

How the results depend on the processing

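The count of genes past the adjusted interaction threshold was 0 in each of the 21 alternative fits, while the count at an unadjusted p under 0.05 ran from 47 with median scaling to 488 of 18852 genes with no filter on dim probes. The replicate block, which takes the letters as a term, left that count of adjusted calls at 0 (255 at an unadjusted p under 0.05), and gave 501 genes for the combination against perifosine, 650 for the combination against control and 404 for sorafenib against control, with 0 for the 2 other comparisons. The letters correlated between the single-drug and control arrays (0.19 to 0.39 for the deviations from the group means) but not for all combination arrays (combination array B -0.16 to -0.10), so they were not taken as pairs. The sterol median was -0.39 both in the authors' table and with no background correction. The linear scale gave a median departure of -0.571 of the control level, against 0.244 for the hypoxia list. On that scale HMGCS1, LSS, FDPS, HK2 and EGLN1 kept the sign of their log2 interaction. TRIB3, CCPG1 and CSNK1G1 did not, with linear departures of 0.316, 0.374 and 0.0149. MYLIP kept its sign at 0.0906. The departure of such genes thus depends on the scale. Leaving out 1 array at a time gave sterol medians from -0.75 to -0.48, hypoxia 0.19 to 0.58, glycolysis 0.0828 to 0.215, stress response -0.17 to 0.10, respiratory chain -0.52 to -0.0013 and ribosomal proteins -0.24 to -0.00074. The sterol, hypoxia and glycolysis medians kept their sign in all 21 alternatives. So did the respiratory chain and ribosomal protein medians, although these were near 0 without combination array B, so a kept sign does not set lists apart. The stress response median kept its sign in 12 of the 21. The same left-out arrays, an alternative for the pairwise comparisons added after seeing the data, gave 28 to 186 genes for the combination against perifosine, 19 to 260 for sorafenib against control and 40 to 260 for the combination against control. Causes of these shifts were not tested. Signal over background limits 1191 of the 8092 genes, which were detected on at most 1 array of some group.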

Other observations

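Some genes with an unadjusted interaction p under 0.01 were at background in at least 1 group, so that their pattern of detection is given and no fold. INTS2, a subunit of the Integrator complex, was detected on 1 combination array, 3 perifosine arrays, 0 sorafenib arrays and 3 control arrays. LRRC57 was detected on 3 combination arrays, 2 perifosine arrays, 1 sorafenib array and 3 control arrays, and NFXL1 on 1 combination array, 0 perifosine arrays, 0 sorafenib arrays and 3 control arrays. TPM3P9, a pseudogene of the tropomyosin gene TPM3, had log2 values of 8.28, 9.02 and 8.54 with the combination and 7.85, 8.10 and 7.71 with sorafenib, and was at background on all perifosine and control arrays. ADNP, CBFA2T2 and CIB2 were detected on 0, 2 and 1 combination arrays, on 0 perifosine arrays, on 3 sorafenib arrays each and on 0 control arrays. With no filter on dim probes another probe stood for ADNP, and its fitted interaction lay on the other side of 0.

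Lists of cell growth had smaller medians than the sterol and hypoxia lists. DNA replication and nucleotide synthesis had a median interaction of 0.05 over 40 genes, with 24 above 0, and -0.04 without combination array B. Mitosis and spindle genes had 0.12 over 38 genes with 24 above 0, and 0.08 with 30 above 0 without combination array B, and the kinetochore gene NUF2 was highest at 0.63. Ribosome biogenesis and MYC targets had -0.03 over 34 genes. Of the 1787 kept probes without a single gene, 0 passed the adjusted threshold and 28 (1.57%) had an unadjusted p under 0.05.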
